A study of Mus musculus with 2 samples.

Results

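The miR-15, miR-16 and miR-195 family comprises microRNAs that share 1 seed, the bases near the 5′ end by which a microRNA pairs with its target messages. Its members were taken as the 6 genes annotated in GENCODE M21 as Mir15a, Mir16-1, Mir15b, Mir16-2, Mir195a and Mir497, out of 2202 microRNA genes counted. All 6 were found, and all 6 passed the minimum of 10 CPM used where genes were compared between libraries. CPM is a gene's count per 1000000 reads counted on the strand of a microRNA gene. Small RNA from the gastrocnemius, the large calf muscle, was sequenced from male B6CASTF1/J mice aged 36 days. These are hybrids of the C57BL/6J and the CAST strains. The series has 1 group of 2 libraries, called replicates 1 and 2, whose labels describe 2 different males but give both the same donor identifier. No treatment or second genotype is given, so the comparisons are among genes of the family and between the libraries. Differences between the libraries then measure only the spread between these samples.

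A microRNA is cut from a hairpin-shaped precursor, and 1 of its arms is loaded into Argonaute to repress messages that carry a match to the seed. The miR-15 family is known as a brake on the cell cycle, acting on cyclins, cyclin-dependent kinases and checkpoint kinases, and on the survival gene Bcl2. Loss of the locus that encodes miR-15a and miR-16-1 is a well-known lesion of chronic lymphocytic leukaemia. In striated muscle, miR-195 and miR-497 are known for holding satellite cells quiescent and for the withdrawal of heart muscle cells from the cell cycle after birth.

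The 6 genes give 5 different mature sequences on their 5p arm, because miR-16-5p is encoded at both Mir16-1 and Mir16-2. They are shown because the seed defines the family and the bases after it are what tells one member's reads from another's. Sequences are RefSeq's, from a table of build GRCm38.p6, which is mm10, and are written 5′ to 3′ with the seed, bases 2 to 8, in capitals. All 6 members had a mature sequence in that table.
miR-15a-5p: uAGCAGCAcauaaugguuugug
miR-15b-5p: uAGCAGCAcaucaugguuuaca
miR-16-5p: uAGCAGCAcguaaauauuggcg
miR-195a-5p: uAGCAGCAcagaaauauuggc
miR-497a-5p: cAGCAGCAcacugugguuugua

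The seed AGCAGCA was identical in all of them, and its reverse complement, UGCUGCU, is the sequence a target site carries. Beyond the seed, the 5 sequences shared base 9 and bases 17 and 18, so that 10 of 21 positions were the same throughout. The fewest differences were between miR-16-5p and miR-195a-5p, which differed at 2 of 21 positions, G10A and U11G, counted from 1 at the 5′ end with the base of miR-16-5p first. The sequences of miR-15a-5p and miR-15b-5p differed at 4 of 22 positions, A12C, G20A, U21C and G22A. Between miR-15a-5p and miR-497a-5p there were 5 differences of 22. The most divergent were miR-16-5p and miR-497a-5p, with 11 of 22.

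Outside the 6 members, 5 other genes of the RefSeq table carried the same seed on a mature arm, which makes 11 of 1738 mature entries (0.633%). One of them is Mir322, a growth-arrest and differentiation microRNA of the X-linked cluster with Mir503. The other four are Mir195b, Mir6342, Mir6353 and Mir6419. A wider group, the group of miR-15 and miR-107, also includes Mir503, whose seed differs in its last letter, and Mir107, Mir103-1 and Mir103-2, in which the same 7 letters begin at base 1 instead of base 2. They are shown here with those letters in capitals, and miR-503-5p with its own bases 2 to 8.
miR-322-5p: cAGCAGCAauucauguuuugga
miR-195b: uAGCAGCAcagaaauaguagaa
miR-503-5p: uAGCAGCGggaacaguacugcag
miR-107-3p: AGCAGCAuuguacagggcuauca
miR-103-3p: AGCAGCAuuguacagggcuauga

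The family is encoded as 3 pairs of hairpins. In mm10, Mir15a (ENSMUSG00000093007.1) is encoded at chr14:61632027-61632110 on the minus strand, and Mir16-1 (ENSMUSG00000092995.1) at chr14:61631880-61631972, 54 bases apart. Both lie in introns of the noncoding RNA Dleu2. Of its 15 annotated transcripts, 8 span the hairpins and none has an exon over them. On the plus strand of chromosome 3, Mir15b (ENSMUSG00000065580.2) occupies 69009772 to 69009835 and Mir16-2 (ENSMUSG00000065606.1) 69009902 to 69009996, 66 bases apart. They lie in introns of Smc4, which encodes a condensin subunit, and 5 of its 11 annotated transcripts span them. Mir497 (ENSMUSG00000105220.1, 70234717 to 70234800) and Mir195a (ENSMUSG00000065411.2, 70235042 to 70235135) are on the plus strand of chromosome 11, 241 bases apart. The annotation gives no host gene on their strand.

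**Figure D1:**
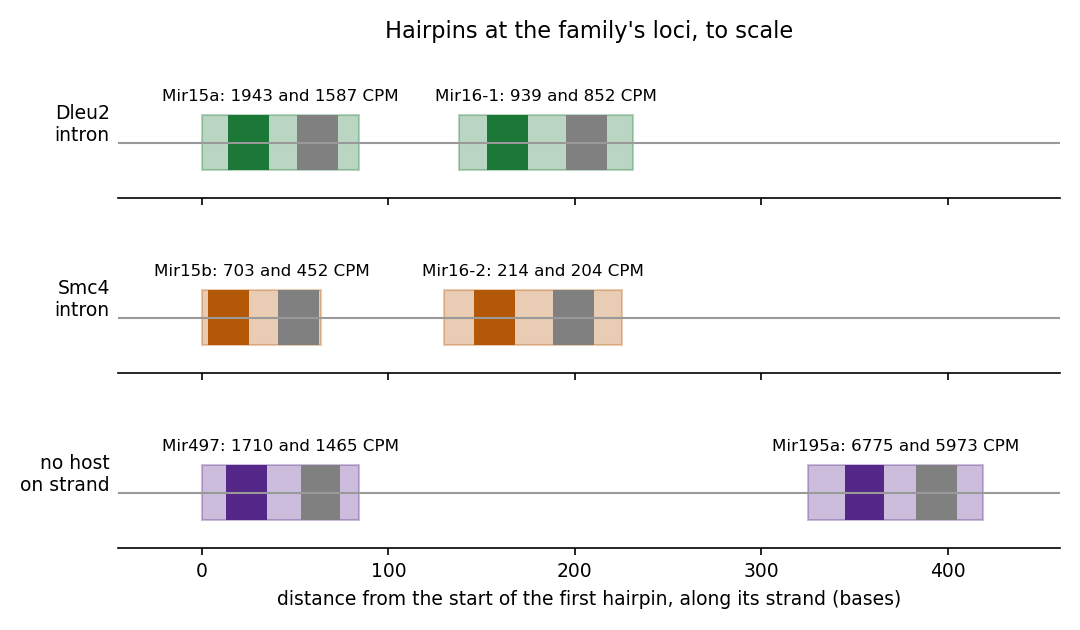
Hairpins of the family at its 3 loci, drawn to scale along the transcribed strand, with distance from the start of the first hairpin in bases on the x axis. Light boxes are hairpins, coloured bars the 5p arms that carry the seed and grey bars the 3p arms. The labels give CPM in replicates 1 and 2. The first 2 loci are compact, while 241 bases separate Mir497 from Mir195a.

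Depth and alignment set what these counts can show. The libraries held 4134880 and 3219740 reads counted on the strand of a gene. Those were 20.96% and 19.2% of all reads, while 70.4% and 73.3% aligned to several loci. By the layout of the tables, reads of that last kind are treated here as assigned to no gene. The labelled tissue showed its defining microRNA Mir206 at 25833.9 and 28689.6 CPM. All 10 striated muscle markers listed had counts in at least 1 library. Together they held 27373.5 and 30448.4 CPM, most of it Mir206. Among the others, Mir486 averaged 881 CPM and Mir1a-2 331, but Mir133a-1 only 24.5, Mir1a-1 13.6 and Mir133b 13.4. These counts cover reads assigned to 1 locus, and Mir1a-1, Mir1a-2 and Mir133a-1 carry a copy number in their symbol. The sequences of these markers were not compared, so whether their reads aligned to several loci was not tested.

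Among annotated hairpins, Mir16-1 and Mir16-2 were the members that shared a stretch of 20 bases or more with a hairpin elsewhere. Their common stretch has 23 bases, printed in capitals in their hairpins below, and it holds the whole of the 22-base miR-16-5p with 1 base more at its 3′ end.
Mir16-1: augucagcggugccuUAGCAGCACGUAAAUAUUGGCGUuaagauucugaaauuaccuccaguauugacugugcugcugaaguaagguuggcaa
Mir16-2: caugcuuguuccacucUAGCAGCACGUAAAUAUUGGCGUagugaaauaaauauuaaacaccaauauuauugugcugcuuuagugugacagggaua
Of the 2202 annotated hairpins, 1 other holds miR-16-5p in full, in each case the other copy, so a read of exactly that sequence aligns to both loci. Their 3p arms have no full copy in another hairpin, and the nearest match, in Mir195a, has 4 differences from miR-16-1-3p and 5 from miR-16-2-3p. The counts do not separate the arms. Which reads make up the counts of Mir16-1 and Mir16-2 was therefore not tested, and miR-16-5p can be largely missing from them.

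For the other 4 members, the longest stretch shared with a hairpin at another position was 16 bases for Mir195a, with Mir195b, 13 for Mir15a, and 12 each for Mir15b and Mir497. Their 5p arms differed from every annotated hairpin elsewhere at 2 or more positions. The smallest such distance was that of miR-195a-5p from Mir16-1 and Mir16-2, which both hold miR-16-5p. Only annotated hairpins were searched, not the rest of the genome, so whether reads of these 4 members aligned to several loci was not tested.

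By reads assigned to 1 locus, Mir195a was the most abundant member, and the order of the 6 was the same in both libraries. Mir195a, the member best known from muscle, had 28012 counts in replicate 1 and 19233 in replicate 2, which is 6774.6 and 5973.5 CPM (mean 6374 ± 566 SD, n = 2). It ranked in place 26 of the 2202 genes. Its count was above that of every other member in both libraries, with no overlap.

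Mir15a, the Dleu2-hosted member, had 8036 and 5109 counts, or 1943 and 1587 CPM (1765 ± 252). Mir497, the neighbour of Mir195a, had 7070 and 4717 counts, or 1709.8 and 1465 CPM (1587 ± 173). These 2 genes overlapped in CPM across the libraries, although Mir15a was the higher within each (log2 ratio 0.18 and 0.12). They ranked in places 49 and 51.

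Mir16-1 had 3883 and 2744 counts, or 939 and 852 CPM (896 ± 61.4), the next in order and clear of Mir497. Mir15b, the partner of Mir16-2 in Smc4, had 2905 and 1455 counts, or 703 and 452 CPM (577 ± 177). Mir16-2 was the lowest by these counts, with 885 and 657, or 214 and 204 CPM (209 ± 7.06). Apart from Mir15a and Mir497, no neighbours in this order overlapped in CPM. Exact Clopper-Pearson 95% intervals were narrow beside these gaps, from 200.2 to 229 CPM for Mir16-2 in replicate 1, for example, and cover counting error only. Each read is 1 short RNA, so counts were not divided by gene length. Unequal capture of different sequences during library preparation was not tested.

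**Figure D2:**
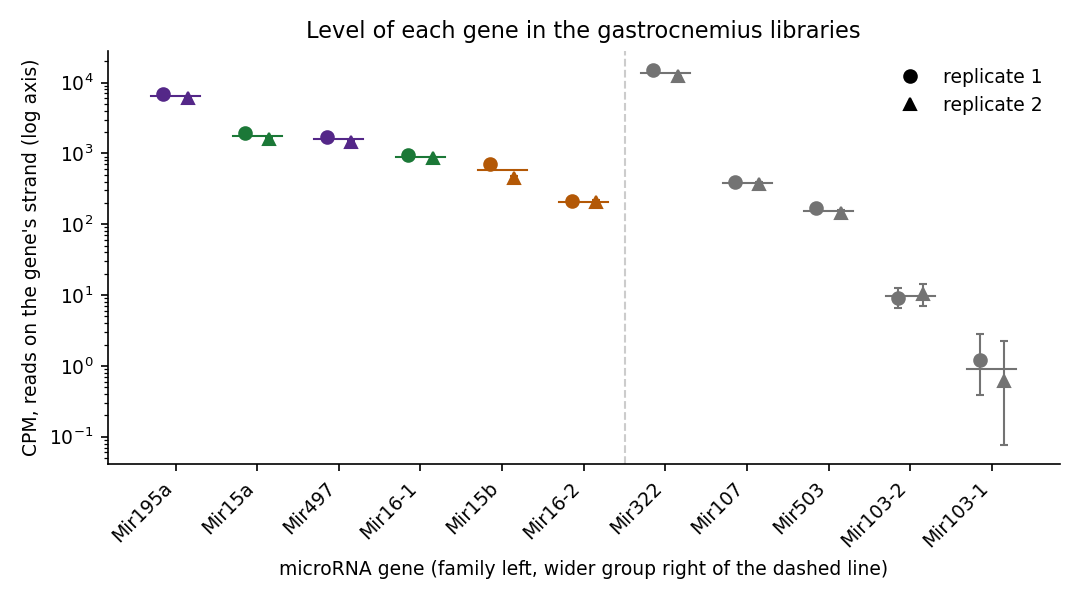
CPM on a log axis for the 6 members (left of the dashed line, coloured by locus) and 5 genes of the wider group (right), with a circle for replicate 1, a triangle for replicate 2, a horizontal line at their mean and bars for exact 95% counting intervals. Mir195a leads the family at 6774.6 and 5973.5 CPM, Mir322 lies above it, and Mir103-1 and Mir103-2 lie lowest.

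Together the members held 50791 counts in replicate 1 and 33915 in replicate 2. That is 1.23% (95% interval 1.22 to 1.24) and 1.05% (1.04 to 1.06) of counted reads, a mean of 1.14% ± 0.124. The chromosome 11 pair made up 69.8% ± 1.09 of the family's counted reads, the Dleu2 pair 23.3% ± 0.220 and the Smc4 pair 6.84% ± 0.873. Mir195a alone made up 55.9% ± 1.10. Because reads of miR-16-5p that align to both of its loci are taken to be uncounted, these shares describe reads assigned to 1 locus.

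**Figure D3:**
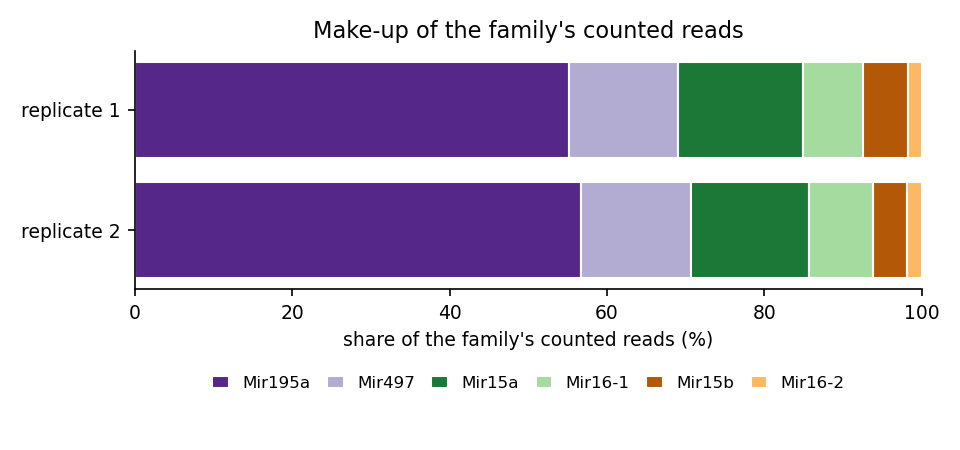
Share of the family's counted reads (x axis, percent) held by each member, with 1 bar per library and purple, green and orange shades for the chromosome 11, Dleu2 and Smc4 pairs. Mir195a takes 55.2% in replicate 1 and 56.7% in replicate 2, and Mir497 13.9% in each.

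Hairpins of the same pair were counted unequally. Within Dleu2, Mir16-1 was 1.96-fold below Mir15a, a log2 ratio of Mir16-1 over Mir15a of −0.97 ± 0.11 (SD, n = 2; −1.05 and −0.90). Within Smc4, Mir16-2 was 2.70-fold below Mir15b (−1.43 ± 0.40). That was the most variable of the 6 ratios computed, at −1.71 in replicate 1 and −1.15 in replicate 2. In both of these pairs the miR-16 hairpin was the lower one, and both ratios can be lowered by reads aligned to the 2 miR-16 loci.

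On chromosome 11, Mir497 was 4.02-fold below Mir195a (−2.01 ± 0.03), the steadiest ratio. No sequence of 20 bases that the pair holds recurs in an annotated hairpin at another position. Their hairpins are shown with both mature arms in capitals.
Mir497: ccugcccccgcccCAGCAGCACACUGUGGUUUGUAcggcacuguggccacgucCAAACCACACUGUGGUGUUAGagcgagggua
Mir195a: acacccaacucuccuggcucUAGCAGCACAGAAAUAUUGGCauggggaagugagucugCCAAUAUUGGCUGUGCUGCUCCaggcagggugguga

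Members of the same name also differed in counted reads between loci. Mir15b was 3.12-fold below Mir15a (log2 ratio of Mir15b over Mir15a −1.64 ± 0.24), and Mir16-2 was 4.28-fold below Mir16-1 (−2.10 ± 0.05). In both cases the Smc4 copy had the lower count. Reads of miR-16 that align to both of its loci are taken to be uncounted. The ratio of Mir16-2 over Mir16-1 therefore covers only the remaining reads, and does not give the relative output of the 2 loci. Mir195a exceeded Mir15a 3.62-fold (1.86 ± 0.08). All 6 ratios kept their direction in both libraries and were larger than their SD, but an exact two-sided sign-flip permutation test over n = 2 libraries gives p = 0.5 at best.

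The size of the uncounted pool can be set beside the miR-16 counts. Mir16-1 and Mir16-2 together had 4768 and 3401 counts, 1105 ± 68.5 CPM. To bring them level with Mir195a would take 23244 further reads in replicate 1 and 15832 in replicate 2. Those are 0.167% and 0.129% of the reads that aligned to several loci. The place of miR-16-5p in the order of the family is therefore not given by these counts.

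Mir497 also shares its position with a gene on the other strand. Mir497b (ENSMUSG00000070109.2) covers 70234692 to 70234816 on the minus strand and overlaps the whole Mir497 hairpin. Its mature microRNA, printed here with bases 2 to 8 in capitals, does not carry the family seed despite its name.
miR-497b: cACCACAGugugguuuggacgugg
On its own strand Mir497b had 0 counts in replicate 1, which allows up to 0.726 CPM, and 2 in replicate 2. The reads over this position thus lay on the strand of Mir497. The column that ignores strand, in which reads over 2 genes are held as ambiguous, lists Mir497 at 0 in both libraries. No other member has a gene on its opposite strand, and the other 5 had 0 counts there in both libraries.

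Among the other genes with the family seed, Mir322 stood alone. It had 62511 and 40003 counts, or 15118 and 12424 CPM (13771 ± 1905), and ranked in place 16. By reads assigned to 1 locus, Mir322 exceeded the sum of all 6 members by 1.23-fold in replicate 1 and 1.18-fold in replicate 2. Reads of miR-16 that align to both of its loci are taken to be missing from that sum. Whether Mir322 exceeds the whole family was therefore not tested. Mir195b, Mir6342, Mir6353 and Mir6419 had 0 counts in both libraries, which allows a level of up to 0.726 CPM in the first library and 0.932 CPM in the second for reads aligned to 1 locus. All genes with the seed together held 2.52% ± 0.314 of counted reads, with the same reads of miR-16 missing.

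In the rest of the wider group, levels were lower than that of Mir15b. Mir107, in an intron of the pantothenate kinase gene Pank1, had 1641 and 1191 counts (383 ± 19.1 CPM). Mir503, the neighbour of Mir322, had 692 and 462 (155 ± 16.9 CPM). Mir103-2, in Pank2, had 38 and 33 counts, and Mir103-1, in Pank3, had 5 and 2. The last 2 encode the same miR-103-3p, so their counts carry the same uncertainty as those of miR-16. As printed above, miR-107-3p matches miR-103-3p except at the base before its last. Shared stretches were searched for the members only, so whether reads of Mir107 aligned to several loci was not tested.

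The libraries were then compared. Ratios of replicate 2 over replicate 1 are given on the log2 scale of CPM + 1 after TMM scaling, with exact 95% intervals that cover counting error only. Each sets 1 library against 1 other, with no replicate behind it. None of the 6 members passed 2-fold in either direction, where 14 of the 261 genes averaging 10 CPM or more did (5.36%). All 6 members averaged above 100 CPM, where 2 of 165 genes did (1.21%), so a count of 0 does not set them apart. The members' median ratio was −0.04, beside −0.05 over all 261 genes.

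Mir15b stood furthest from 0, with a ratio of −0.47 (95% interval −0.56 to −0.38), or 1.38-fold lower in replicate 2. Of the 261 genes, 35 (13.4%), itself included, were at least as far from 0, most of them at lower levels. Among the 165 genes averaging 100 CPM or more, the only others as far were Mir338, Mir138-1, Mir423, Mir148a and Mir196b. Mir16-2, the neighbour of Mir15b, had a ratio of 0.10 (−0.05 to 0.25), or −0.07 under total-count scaling, where Mir15b had −0.64. The count of Mir16-2 carries the uncertainty of the miR-16 loci, and the difference between the 2 ratios was not tested. Beside the lower Mir15b, the summed level of the 9 listed neuron and glia microRNAs was 4297 CPM in replicate 1 and 1244 CPM in replicate 2. That list had 6 members at 0 in both libraries (3 loci each of Mir124a and Mir9), 2 lower and 1 higher in replicate 2 after TMM scaling, and its part in the difference was not tested. After TMM scaling, the log2 ratio of that list's sum was −1.62. Nearly all of the sum was 1 gene, Mir338 (mean 2761 CPM, ratio −1.63). The sums of the other marker lists were higher in replicate 2 on the same scale. The ratio was 0.13 for red cells (2 genes), 0.23 for leukocytes (5), 0.29 for smooth muscle and fibroblasts (6), 0.32 for striated muscle (10) and 0.33 for endothelium (1), and no gene of these lists was at 0 in both libraries. A sum can hide its genes. In the smooth muscle and fibroblast list, 4 genes were lower and 2 higher, and most of its sum was Mir143 (mean 86966 CPM, ratio 0.30). Red cells had 1 lower and 1 higher, leukocytes 1 lower and 4 higher, and striated muscle 1 lower and 9 higher.

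The other 5 members were closer to 0. Mir15a had −0.13 (−0.18 to −0.07), Mir497 −0.06 (−0.11 to −0.003), Mir195a −0.01 (−0.04 to 0.01) and Mir16-1 0.03 (−0.04 to 0.10). For Mir195a, Mir16-1 and Mir16-2 the counting interval includes 0. Under TMM scaling 4 members were lower in replicate 2 and 2 higher, but under total-count scaling all 6 were lower and under DESeq2 size factors 3 were lower and 3 higher. Total-count scaling also moved the median of all 261 genes to −0.21, and the members' median there was −0.20. Only Mir15a, Mir15b and Mir497 were lower under all 3 scalings, Mir497 by as little as −0.003.

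**Figure D4:**
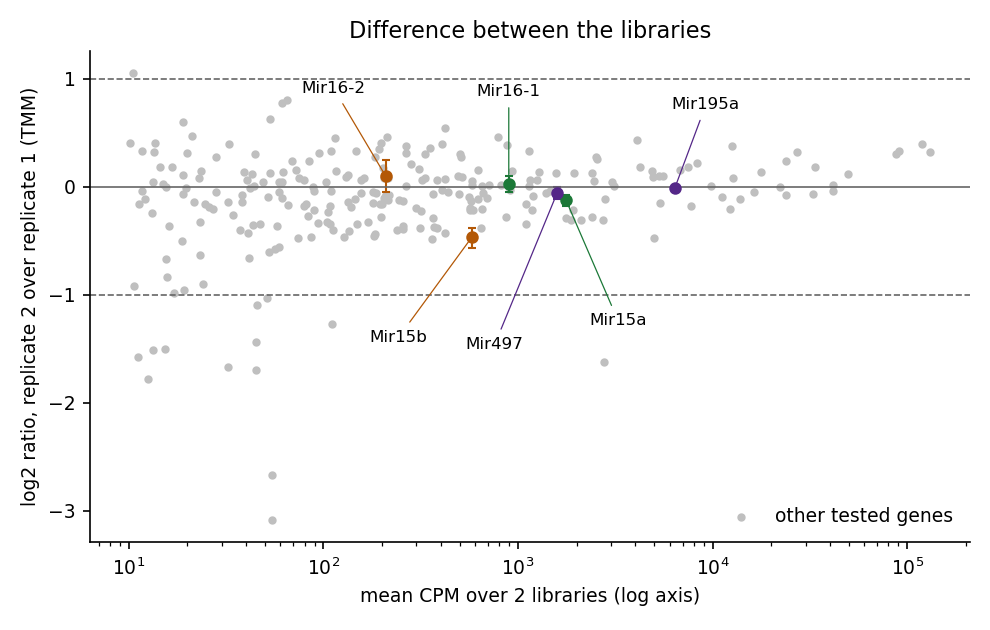
Log2 ratio of replicate 2 over replicate 1 after TMM scaling (y axis) against mean CPM (x axis, log) for the 261 genes averaging 10 CPM or more, with the 6 members coloured by locus and bars for 95% counting intervals. Dashed lines mark 2-fold. Mir15b lies at −0.47 and the other members between −0.13 and 0.10.

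The genes most like each member in level were found by the Euclidean distance over the 2 libraries' log2(CPM + 1) values, 2 genes per member. With 1 group this measures level and no response to a condition. Mir195a lay nearest Mir139 (distance 0.19) and Mir191 (0.29), at 6822 ± 34.4 and 5558 ± 188 CPM. Mir15a lay nearest Mir382 (0.12) and Mir487b (0.16), at 1753 ± 390.2 and 1904 ± 351 CPM. Mir497 lay nearest Mir361 (0.13) and Mir101b (0.18), at 1557 ± 32.0 and 1456 ± 147 CPM.

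Mir16-1 lay nearest Mir676 (0.04) and Mir20a (0.12), the latter a member of the growth-promoting Mir17hg cluster at 931 ± 9.48 CPM. Mir15b lay nearest Mir26a-2 (0.18) and Mirlet7c-2 (0.19), both with a copy number in their symbol, at 564 ± 105 and 563 ± 101 CPM. The genes Mir26a-1 and Mirlet7c-1 averaged 11.7 and 197 CPM. Whether reads of these copies aligned to several loci was not tested. Mir16-2 lay nearest the leukocyte microRNA Mir142 (0.03) and the skin microRNA Mir203 (0.04), at 206 ± 8.59 and 214 ± 8.57 CPM.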

How the data were processed

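Small RNA, with a size range below 30 per the labels, was sequenced from gastrocnemius in 2 libraries, whose labels describe 2 males. The authors deposited 1 table of whole-number read counts per library. The deposited file descriptions name mm10 as assembly and M21 as annotation. For the aligner, counter and trimming, the sources used here give no name. Of the 3 count columns, reads on the gene's strand were used. The 4 rows that name no gene, 79.0% and 80.8% of reads, stayed out of library sizes. Effects of CAST alleles on alignment were not analysed.

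Computed from the counts were CPM, mean ± SD, exact intervals, log2 ratios of counts + 0.5 for 6 fixed pairs, and ratios between libraries of CPM + 1 with TMM factors 1.06 and 0.944 (edgeR 4.0.16; alternatives DESeq2 1.42.0 and total count) over the whole table. A count of 0 was taken to allow 3 counts. No test between conditions was possible. The ratio script was tested on simulated data. The libraries were not 1 library entered in duplicate (chi-square over 362 genes, 111.5 for each degree of freedom). Sequences were searched for shared stretches of 20 bases. RefSeq held hairpins for 12 of 13 genes, all at the GENCODE position, without Mir15a. Named genes were the members, any opposite-strand gene, the genes with the seed, a fixed list of 5 and the 2 nearest genes per member. Members and lists were chosen with earlier results of these data known.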

Additional observations from a re-analysis of the deposited data

How the results depend on the processing

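The 6 ratios between members kept their direction under pseudocounts of 1 and 0, in either library alone and in the column that ignores strand. In that column the ratio of Mir497 over Mir195a was −15.50, because Mir497 is listed at 0, and no ratio between libraries could be given for Mir497. The family's share of counted reads was 1.31% there, where fewer reads are assigned, 0.230% of all reads, and 1.31% without the most abundant gene. It was 1.05% to 1.23% in single libraries. With 2 libraries each single value lies within 1 SD of the mean by construction. Of the ratios between libraries, the sign turned for Mir16-1 (−0.14) and Mir16-2 (−0.069) under total-count scaling. It also turned for Mir195a under DESeq2 size factors (0.039) and in the column that ignores strand (0.011). Genes past 2-fold numbered 41 with no minimum, where more low genes enter, and 2 of 165 at a minimum of 100 CPM, against 14 of 261. The number of members past 2-fold was 0 under each alternative. Mir16-1 and Mir16-2 were the members sharing a stretch at 18, 20 and 22 bases. No paired analysis was possible because the series has 1 group. Within each library, the counting intervals of neighbouring members did not overlap, those of Mir15a and Mir497 included. The CPM of Mir15a and Mir497 overlapped only across the libraries. Reads aligned to several loci limit what the counts of Mir16-1 and Mir16-2 show.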
